A study of Mus musculus with 23 samples.

Results

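The small heat shock proteins are a family of chaperones that share an alpha-crystallin domain. The 7 genes described here, Hspb1, Hspb2, Hspb3, Hspb6, Hspb7, Hspb8 and Cryab, were chosen by their symbols in the annotation of the array's probes. They are 7 of 18069 genes so named, each has 1 of the array's 36227 probes, and all 7 were among the 21979 probes tested. The arrays measured RNA of whole mouse embryos of day 8.5 from crosses of p53 heterozygous mice. For 10 minutes the embryos were bathed at either 38 °C, the control, or 43 °C, the heat bath. Embryos of like genotype and bath were then pooled, with 3 to 7 embryos in a pool and 1 array for each pool. There were 4 control pools each of p53 +/+ (wildtype), p53 +/- (heterozygous) and p53 -/- (null) embryos, 4 heat pools each of wildtype and heterozygous embryos, and 3 of null embryos. The design names a 4th pool for the null heat group, not analysed here. All embryos were handled in a bath, so none stands for an untreated embryo. The sources used here do not give the strain, the p53 allele or the time from bath to collection.

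Small heat shock proteins bind unfolding proteins without using ATP and hold them until the Hsp70 chaperones or autophagy deal with them. Hspb1, Hspb8 and Cryab are stress-responsive members found in many tissues, whereas Hspb2, Hspb3, Hspb6 and Hspb7 are best known from heart, skeletal and smooth muscle. The classical heat response runs through the transcription factor Hsf1, which binds heat shock elements, inverted repeats of the unit GAA. At day 8.5 the neural tube is closing, the heart tube has begun to beat and the first somites have formed.

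The upstream stretches of 3 members are shown because their transcripts passed the test of heat against control below. RefSeq promoter windows of assembly GRCm38.p6, each running from 250 bases before to 50 bases after a transcription start, were found for 5 of the 7 members (6 windows, since Hspb6 has 2), and not for Hspb2 and Cryab. The 250 bases before the start of Hspb1 lie on the plus strand at chr5:135887669-135887918, those of Hspb8 on the minus strand at chr5:116422865-116423114, and those of Hspb3 on the minus strand at chr13:113663677-113663926. They are written 5′ to 3′ up to the base before the start, and capitals mark each match to a pair of inverted units, GAANNTTC or TTCNNGAA.
Hspb1: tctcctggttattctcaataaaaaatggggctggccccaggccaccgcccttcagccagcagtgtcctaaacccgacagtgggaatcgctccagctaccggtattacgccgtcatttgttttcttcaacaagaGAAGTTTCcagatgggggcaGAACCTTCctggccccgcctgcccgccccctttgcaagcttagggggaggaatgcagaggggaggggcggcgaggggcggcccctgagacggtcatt
Hspb8: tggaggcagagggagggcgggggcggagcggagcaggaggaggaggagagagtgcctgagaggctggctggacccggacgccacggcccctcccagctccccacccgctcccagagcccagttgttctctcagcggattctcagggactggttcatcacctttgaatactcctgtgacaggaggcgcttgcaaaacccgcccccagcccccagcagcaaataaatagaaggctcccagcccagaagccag
Hspb3: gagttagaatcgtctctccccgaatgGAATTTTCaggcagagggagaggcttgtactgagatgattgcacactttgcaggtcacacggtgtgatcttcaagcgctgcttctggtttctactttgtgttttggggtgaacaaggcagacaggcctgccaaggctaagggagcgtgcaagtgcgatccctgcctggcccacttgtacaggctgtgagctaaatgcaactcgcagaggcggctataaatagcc
Hspb1 had 2 such pairs, GAAGTTTC starting 117 bases before the transcription start and GAACCTTC starting 97 bases before it. Hspb3 had 1, GAATTTTC, 224 bases before the start. Hspb8 had none in the bases shown and 1, GAAGTTTC, just inside the transcribed part. One of the Hspb6 windows held 1 pair, 120 bases before the start, and that of Hspb7 held none. The same search found 1 pair, GAAGATTC, 104 bases before the start of the inducible Hsp70 gene Hspa1a. A pair in either arrangement, each of which reads the same on both strands, was present in 15.1% of the 32851 windows of that length. The stricter form with 3 units, GAANNTTCNNGAA or its reverse complement, was in 0.603% of windows and in none of the members'. A match here is a match of letters only.

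Intensities below are quantile-normalized values in relative units, with means ± SD over pools. Levels of different genes are not set against each other, since each probe has its own brightness. Differences are on the log2 scale ± SE, with limma's adjusted p over all 21979 probes and a threshold of 0.05. With heat, 3 of the 7 members passed in wildtype pools (Hspb1 and Hspb8 higher, Hspb3 lower), against 3.08% of all probes tested. In heterozygous pools 2 passed (Hspb1 and Hspb3), against 2.31% of all probes, and in null pools 1 (Hspb1), against 5.53%. In the heat effect averaged over the genotypes the same 3 as in wildtype passed, against 12.2%. The median difference of the members was -0.24 in wildtype, -0.05 in heterozygous and 0.46 in null pools, beside 0.01, 0.02 and -0.03 over all tested probes. The family therefore had no common direction: 2 of its genes rose with heat, 1 fell and 4 did not pass the heat test in any genotype.

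**Figure D1:**
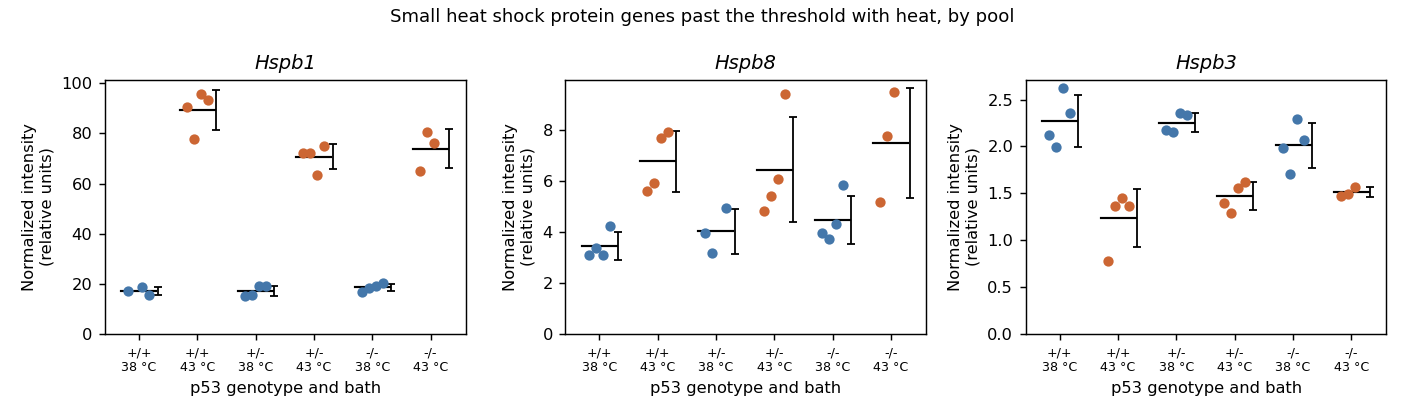
Normalized intensity of Hspb1, Hspb8 and Hspb3 (vertical axes, relative units from 0) in each pool, by p53 genotype and bath (38 °C control, 43 °C heat); points are pools, lines are means and bars are SDs. Every heat pool of Hspb1 lies above every control pool (63.5 or more against 20.2 or less), Hspb8 is higher in heat with some overlap outside wildtype, and Hspb3 is lower in heat in each genotype.

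Hspb1 encodes the small heat shock protein that p38 signalling phosphorylates through the MAPKAP kinases and that protects actin filaments under stress. It was at 17.2, 18.6 and 15.6 in wildtype control pools A, C and D, and the cell of pool B is empty. In the wildtype heat pools A to D it was at 90.5, 77.9, 95.9 and 93.3. The wildtype groups lay far apart. The heterozygous control pools were at 15.2, 15.5, 18.9 and 19 and the heat pools at 72.3, 72.1, 63.5 and 75. The null control pools were at 16.6, 18.1, 19.1 and 20.2 and the heat pools at 65.1, 80.4 and 76.3. No heat pool of any genotype overlapped a control pool, and the controls of the 3 genotypes lay within one range.

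Hspb1 rose with heat by 2.38 ± 0.11 in wildtype pools (adjusted p = 7.4e-12), which is 5.22-fold. It rose by 2.05 ± 0.10 in heterozygous pools (adjusted p = 3.2e-11, 4.14-fold) and by 2.0 ± 0.11 in null pools (adjusted p = 2.4e-10, 3.99-fold). Averaged over the genotypes the rise was 2.14 ± 0.06 (adjusted p = 5.9e-16), rank 2 of the 21979 probes by p and rank 3 by size. Hspb1 rose in all 3 genotypes also when each pool was left out in turn (2.32 to 2.45, 1.99 to 2.1 and 1.93 to 2.09). In the deposited values, without further normalization, the wildtype rise was 2.1. There, Hspb1 stood at 69.8 to 82.5 in wildtype heat pools and at 16.5 to 18.9 in the control pools with a value. The median difference of all tested probes in wildtype was -0.12 in the deposited values, against 0.01 after quantile normalization.

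After quantile normalization the Hspb1 levels in heat pools ran from heterozygous (70.7 ± 4.96, n = 4) through null (73.9 ± 7.94, n = 3) to wildtype (89.4 ± 7.97, n = 4). Heterozygous and null pools overlapped and did not pass (0.06 ± 0.11, adjusted p = 0.94). Normalized wildtype pools all lay above the heterozygous ones, with 77.9 as the lowest against 75 as the highest, yet the difference did not pass (-0.34 ± 0.10, adjusted p = 0.18). Null against wildtype heat pools gave -0.28 ± 0.11 (adjusted p = 0.18). The place of the null pools in this order rests on the scaling. In the deposited values the heat pools were at 70 ± 10.3 in heterozygous, 76.6 ± 5.53 in wildtype and 77.6 ± 12.8 in null embryos. There heterozygous heat D (85.3) lay above every wildtype heat pool, and null against wildtype was 0.01 ± 0.13 (adjusted p = 0.98). The heat response differed from the wildtype one by -0.39 ± 0.15 in null pools and by -0.33 ± 0.15 in heterozygous ones, and neither difference passed (adjusted p = 0.16 and adjusted p = 0.76). In the deposited values they were -0.09 ± 0.19 and -0.17 ± 0.18. A dependence of the Hspb1 response on p53 was therefore not shown.

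Hspb8 encodes the partner of the co-chaperone Bag3 in the sorting of damaged proteins to autophagy. In wildtype control pools A to D it was at 3.09, 3.37, 3.07 and 4.24, and in the heat pools at 5.59, 5.9, 7.66 and 7.92. These wildtype groups did not overlap. The heterozygous control pools A, B and D were at 3.96, 3.16 and 4.93 (the cell of C is empty), and the heat pools at 4.83, 5.4, 6.06 and 9.42. The null control pools were at 3.95, 3.72, 4.32 and 5.84 and the heat pools at 5.18, 7.76 and 9.47. In both mutant genotypes 1 control pool, D, lay above the lowest heat pool, A, and the heat pools spread widely. Hspb8 rose by 0.97 ± 0.21 in wildtype pools (adjusted p = 0.014, 1.96-fold) and by 0.78 ± 0.13 averaged over the genotypes (adjusted p = 0.00035). The differences of 0.65 ± 0.23 in heterozygous pools (adjusted p = 0.14) and 0.72 ± 0.23 in null pools (adjusted p = 0.065) did not pass. With the pool letter as a block in limma both passed, at 0.64 ± 0.14 (adjusted p = 0.019) and 0.85 ± 0.15 (adjusted p = 0.0046). The wildtype call was lost in the deposited values, at 0.80 ± 0.25 (adjusted p = 0.051). The responses were not shown to differ between genotypes, with null minus wildtype at -0.25 ± 0.31 (adjusted p = 0.64) and heterozygous minus wildtype at -0.32 ± 0.31 (adjusted p = 0.94).

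The pools of highest Hspb8, heterozygous heat D and null heat C, are also the arrays with the highest single values, 445 and 488 against 181 to 384 on the others. The part of that array property in the Hspb8 spread was not tested; with the array maximum as a covariate the heterozygous difference was 0.32 ± 0.24 (adjusted p = 0.48) and the null one 0.65 ± 0.21 (adjusted p = 0.029).

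Hspb3, whose product pairs with that of Hspb2 in muscle cells, went the other way. It was at 2.12, 1.99, 2.62 and 2.36 in wildtype control pools A to D and at 0.779, 1.36, 1.45 and 1.36 after heat. The heterozygous control pools were at 2.18, 2.15, 2.36 and 2.33 and the heat pools at 1.4, 1.29, 1.56 and 1.62. The null control pools were at 1.98, 1.71, 2.29 and 2.07 and the heat pools at 1.47, 1.49 and 1.57. Heat and control pools did not overlap in any genotype. Hspb3 fell by 0.91 ± 0.15 in wildtype pools (adjusted p = 0.0015), to 0.532 of the control level, and by 0.62 ± 0.15 in heterozygous pools (adjusted p = 0.029). The null difference was -0.40 ± 0.16 (adjusted p = 0.12), and the average over the genotypes fell by 0.65 ± 0.09 (adjusted p = 4.2e-05). The heterozygous call was lost when heterozygous control A (adjusted p = 0.06), C (0.072) or D (0.07) or heat A (0.089), B (0.1) or C (0.053) was left out. The difference between the null and wildtype responses did not pass (0.51 ± 0.22, adjusted p = 0.19).

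Some markers of somite and muscle cells were lower with heat. Of 9 tested somite and skeletal muscle markers 4 fell in the average over the genotypes and 0 rose, against 12.2% of all probes called in either direction, namely Tbx6 (-0.29 ± 0.07) and Uncx (-0.48 ± 0.15), transcription factors of the paraxial mesoderm, Meox2 (-0.42 ± 0.10), a homeobox gene of somites, and Myf5 (-0.26 ± 0.08), which starts the muscle programme. The summed level of the 6 of these genes with a value on every array was 45.3 to 51.1 in wildtype control and 38.6 to 45.3 in wildtype heat pools. It was 47.4 to 49.9 and 38.4 to 44.7 in heterozygous pools, and 48 to 49.1 and 45.6 to 53 in null pools, where the baths overlapped. In null pools the mean log2 level with heat went from 0.97 to 1.02 for Meox2 and from 0.60 to 0.57 for Myf5. There it went from 0.62 to 0.52 for Uncx and from 1.47 to 1.05 for Tbx6. Of 23 tested heart muscle markers 1 fell, Nppb, a natriuretic peptide gene (-0.82 ± 0.17, adjusted p = 0.003), and 0 rose; the next by p, Gata4 (0.17 ± 0.07), Ryr2 (-0.17 ± 0.08) and Mybpc3 (-0.24 ± 0.11), did not pass. In bulk pools of embryos fewer cells of a type and less RNA per cell cannot be told apart, and the part of these markers in the Hspb3 difference was not tested. Wildtype heat A was lowest of all 23 pools both for Hspb3 (0.779) and for the summed level of 20 heart muscle markers (241 against 299 to 384 in the other pools). Without that pool the wildtype fall of Hspb3 was 0.70 ± 0.11 (adjusted p = 0.0024).

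**Figure D2:**
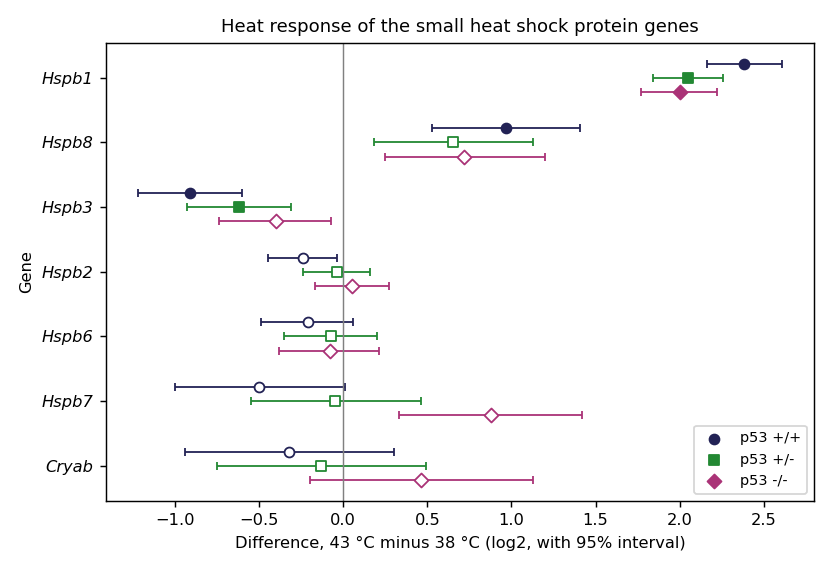
Heat minus control difference of each member on the log2 scale (horizontal axis) in wildtype, heterozygous and null pools, with 95% intervals; filled symbols passed the threshold. Hspb1 stands at 2 to 2.38 in the 3 genotypes, Hspb3 is below 0 throughout, and Hspb7 runs from -0.50 in wildtype to 0.88 in null pools.

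Hspb7, the cardiovascular small heat shock protein of the sarcomere, passed in a comparison of genotypes and in none of baths. In wildtype control pools A to D it was at 1.85, 1.31, 1.61 and 1.79 and in the null control pools at 1.16, 0.67, 0.856 and 0.747. These 2 groups did not overlap, and the heterozygous control pools, at 1.63, 2.2, 0.917 and 1.22, spanned both. Hspb7 was lower in null than in wildtype control pools by 0.95 ± 0.24 (adjusted p = 0.024), 1 of 7 members past the threshold against 8.36% of all probes. The call was lost when wildtype control A (adjusted p = 0.062), C (0.051) or D (0.064) or null control B (0.076), C (0.056) or D (0.075) was left out.

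Each array was scored on the difference between heterozygous control pools A, B and C, D, a split known from earlier results of these data. On that score wildtype control arrays stood at 0.07 to 0.43 and null control arrays at -0.61 to -0.24, on the side of C and D. With this score as a covariate, the Hspb7 difference between null and wildtype controls was -0.48 ± 0.23 (adjusted p = 0.5). Wildtype and null control arrays did not overlap on the score, which comes from these same data. The fit therefore cannot fully separate the score from the genotype. Heterozygous control A and B are also the higher of the 4 for Hspb7 and for the related gene Cryab. What the score stands for was not tested. The 20 heart markers summed to 319 to 371 in wildtype and 299 to 337 in null control pools, and of 23 tested heart markers 1 passed between them: Popdc2, a membrane protein of heart muscle, was lower in null controls by 1.73 ± 0.37 (adjusted p = 0.013). The part of heart tissue in the Hspb7 difference was not tested.

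After heat the group means of Hspb7 ran in the opposite order, with 0.868, 0.943, 1.54 and 1.4 in wildtype pools, 1.72, 1.51, 1.34 and 1.01 in heterozygous pools and 1.77, 1.72 and 1.2 in null pools. The 3 groups overlapped. Its heat difference was -0.50 ± 0.24 in wildtype (adjusted p = 0.29), -0.05 ± 0.24 in heterozygous (adjusted p = 0.96) and 0.88 ± 0.26 in null pools (adjusted p = 0.054), none past the threshold. The null response exceeded the wildtype one by 1.37 ± 0.36 without passing (adjusted p = 0.063), and it passed in the deposited values (1.38 ± 0.36, adjusted p = 0.041).

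**Figure D3:**
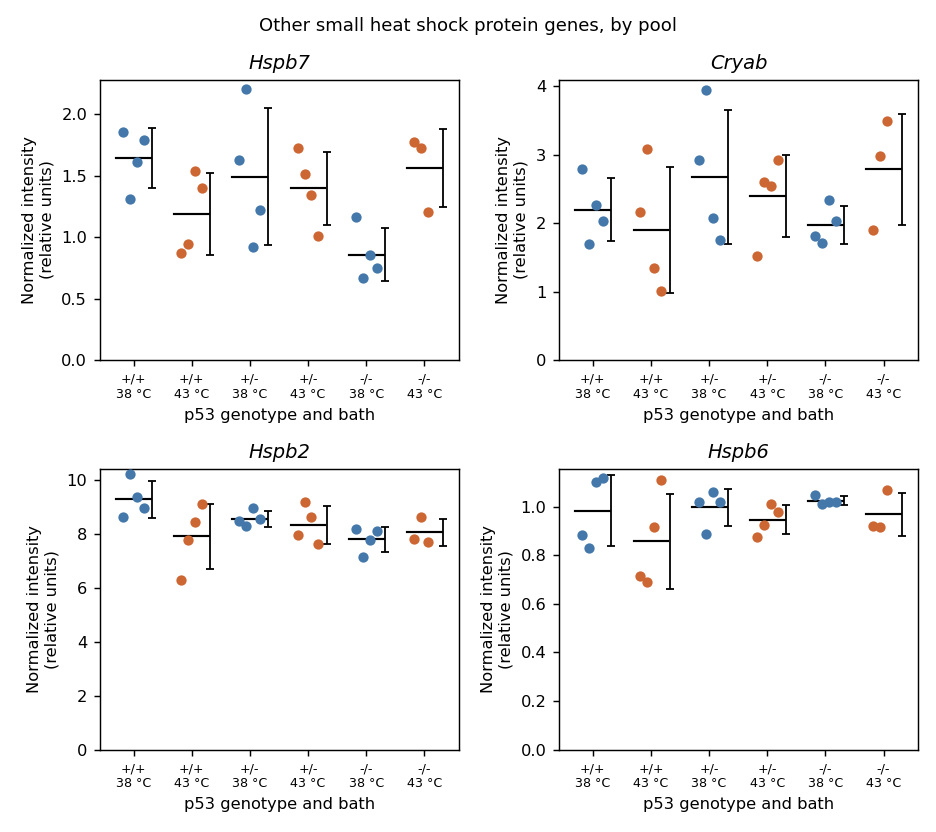
Normalized intensity of Hspb7, Cryab, Hspb2 and Hspb6 (vertical axes, relative units from 0) in each pool, by p53 genotype and bath; points are pools, lines are means and bars are SDs. The null control pools of Hspb7 (0.67 to 1.16) lie below the wildtype controls (1.31 to 1.85), and the heat and control pools of Cryab, Hspb2 and Hspb6 overlap in each genotype.

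Cryab encodes alpha-B crystallin, a lens and muscle chaperone that binds desmin. Its control pools were at 1.7 to 2.79 in wildtype, 1.76 to 3.95 in heterozygous and 1.72 to 2.34 in null embryos, and its heat pools at 1.01 to 3.09, 1.53 to 2.92 and 1.9 to 3.49. All groups overlapped. Heat minus control was -0.32 ± 0.30 in wildtype, -0.13 ± 0.30 in heterozygous and 0.46 ± 0.32 in null pools (adjusted p = 0.62, 0.89 and 0.36). The upper 95% bounds, 0.3, 0.49 and 1.13, lie below the rise of Hspb1 in the same genotype.

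Hspb2, known for binding the myotonic dystrophy kinase, lies within the annotated span of Cryab and was among the steadier members. Its control pools ran from 8.62 to 10.2 in wildtype, 8.27 to 8.96 in heterozygous and 7.13 to 8.17 in null embryos, in falling order with no overlap between wildtype and null. That difference did not pass (-0.25 ± 0.10, adjusted p = 0.11). With heat Hspb2 differed by -0.24 ± 0.10 in wildtype pools (adjusted p = 0.19), and this passed in the deposited values (-0.43 ± 0.12, adjusted p = 0.027). Hspb2 differed by -0.04 ± 0.10 and 0.05 ± 0.11 in heterozygous and null pools. Hspb6, a chaperone of heart and smooth muscle that is phosphorylated by protein kinase A, was at 0.831 to 1.12 over all control pools and at 0.691 to 1.11 over all heat pools. Its heat differences were -0.21 ± 0.13, -0.07 ± 0.13 and -0.08 ± 0.14 in the 3 genotypes (adjusted p = 0.42, 0.85 and 0.73). The smooth muscle list had 2 of 6 tested markers lower with heat in the average and 0 higher, against 12.2% of all probes called in either direction. They were Mylk (-0.37 ± 0.09) and Cnn1 (-0.23 ± 0.07), while Tagln (-0.26 ± 0.09) and Myocd (0.30 ± 0.10) did not pass. Neither fell in every genotype: the mean of Mylk was 2.86 in both wildtype baths, and that of Cnn1 went from 9.51 to 10.4 in null pools.

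Between genotypes no member passed in any other comparison. The shares of all probes that passed were 0.00455% for heterozygous against wildtype and 0.0455% for null against heterozygous control pools. After heat they were 0.56% for null against wildtype, 0.141% for heterozygous against wildtype and 0.00455% for null against heterozygous pools. Among the differences of heat responses they were 1.01% for null minus wildtype, 0% for heterozygous minus wildtype and 0.0227% for null minus heterozygous pools. These counts moved with single pools: leaving out 1 pool gave 0 to 769 probes in place of 10 for null against heterozygous controls, 22 to 1330 in place of 123 for null against wildtype heat pools, and 8 to 344 in place of 222 for the null minus wildtype response. A missing call does not show that a member is independent of p53. The 0% is from limma with 1324 probes at an unadjusted p under 0.05.

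The heat pools differed in how far the inducible Hsp70 gene Hspa1a was raised, whereas Hspb1 was raised in all 11 of them. Hspa1a was at 78.7, 123 and 102 in wildtype pools A, C and D after heat and at 120 in null pool B. In the other 7 heat pools it was at 0.877 to 2.1, against 0.496 to 1.04 in the 12 control pools. Wildtype heat B, with Hspa1a at 0.877, had Hspb1 at 77.9, far above every control pool. The Hspb1 level was not ordered by Hspa1a under both scalings. After quantile normalization the 4 pools with high Hspa1a had Hspb1 at 80.4 to 95.9 and the other heat pools at 63.5 to 77.9, but in the deposited values the highest Hspb1 was in null heat C (86.2) and heterozygous heat D (85.3), both with low Hspa1a. Null heat C and heterozygous heat D are also the arrays with the highest single values, 488 and 445. After normalization their Hspb1 was at 76.3 and 75. The 2 highest pools of Hspb8 had Hspa1a at 1.76 and 2.1. These pools were set apart by a measured value, so no test was made between them.

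**Figure D4:**
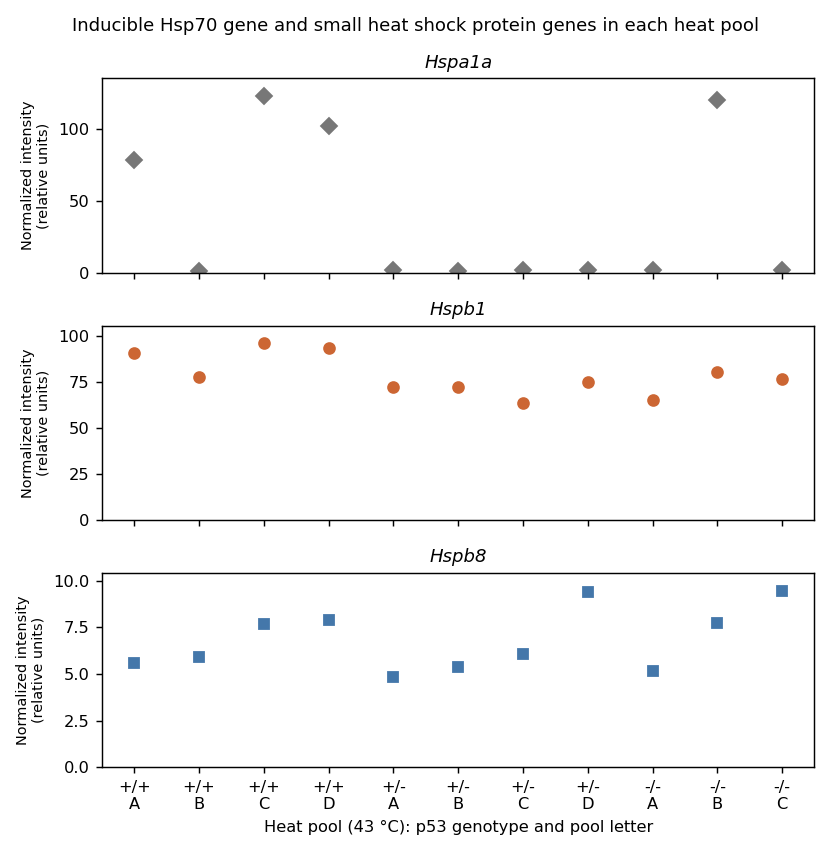
Normalized intensity of Hspa1a, Hspb1 and Hspb8 (3 panels, vertical axes in relative units from 0) in each of the 11 heat pools, by p53 genotype and pool letter. Hspa1a is at 78.7 to 123 in 4 pools and at 2.1 or less in the other 7, while Hspb1 is at 63.5 or more in all.

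Of 41 genes for heat shock factors and heat-induced chaperones 29 were tested. In the average over the genotypes 5 rose and 1 fell, against 12.2% of all probes called in either direction. The median difference was 0.02 against 0.00 over all tested probes. Those that rose were Hsp90aa1, the inducible cytosolic Hsp90 (0.43 ± 0.05, adjusted p = 4.4e-06), Hsbp1, a binder of heat shock factor (0.27 ± 0.05), Hspa1a (3.23 ± 0.70), Hspa1b (1.77 ± 0.48) and the Hsp40 gene Dnajb6 (0.31 ± 0.09). Hspa1b was at 93.5 to 125 in the pools with high Hspa1a and at 4.17 to 5.85 in the other heat pools, against 3.76 to 5.75 in control pools. Ahsa2, a relative of an Hsp90 activator, fell by 0.35 ± 0.09. Hsp90aa1 was at 111 to 124 in wildtype control and 132 to 172 in wildtype heat pools and passed in each genotype (0.39 ± 0.08, 0.46 ± 0.08 and 0.45 ± 0.09). The Hsp40 gene Dnajb1, a classical heat-induced partner of Hsp70, was at -0.28 ± 0.11 (adjusted p = 0.11), and the Hsp110 gene Hsph1 at 0.43 ± 0.15 (adjusted p = 0.059).

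Of 20 partners and kinases of the small heat shock proteins 18 were tested. In the average 3 of them rose and 1 fell, against 12.2% of all probes called in either direction, with a median of 0.01. Mapkapk3, a p38-activated kinase of Hspb1, rose by 1.07 ± 0.10 (adjusted p = 5.9e-07), from 0.623 to 0.817 in wildtype control pools to 2.12 to 3.02 in wildtype heat pools. Its rise was 1.78 ± 0.17 in wildtype and 0.82 ± 0.17 in heterozygous pools, against 0.59 ± 0.19 in null pools, which did not pass (adjusted p = 0.061). The null response was smaller than the wildtype response by 1.19 ± 0.25 (adjusted p = 0.025). Mapkapk3 was also lower in null than in wildtype heat pools by 1.01 ± 0.19 (adjusted p = 0.012). The autophagy receptor gene Sqstm1 rose by 0.52 ± 0.06 and the kinase gene Mapkapk5 by 0.25 ± 0.07, while the p38 kinase gene Mapk12 fell by 0.16 ± 0.05. Bag3, the partner of Hspb8, did not pass (0.22 ± 0.11, adjusted p = 0.19). Mapkapk2, the other main kinase of Hspb1, did not pass with heat (0.21 ± 0.21) but was lower in null than in wildtype controls by 2.0 ± 0.35 (adjusted p = 0.0056), at 0.883 to 1.72 against 3.95 to 4.85. Among other family genes Cryaa, Hspb9 and Odf1 were tested, and their average heat differences, 0.01 ± 0.09, -0.09 ± 0.06 and 0.07 ± 0.07, did not pass.

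The genes closest to each member over the arrays were found by Pearson's r, as a description that pools groups and shares arrays, baths and normalization. Closest to Hspb1 were Tcte3 (r = 0.979, 22 arrays), a dynein light chain gene, Rbmxl2 (r = 0.978, 21 arrays), an RNA-binding protein gene of male germ cells, and Smc1b (r = 0.96, 22 arrays), a meiotic cohesin gene. Closest to Hspb8 were Asns (r = 0.92), asparagine synthetase, Carhsp1 (r = 0.91) and Atp9a (r = 0.901), each over 22 arrays. The other members were set against 23 arrays. Hspb3 was most like Spa17 (r = 0.918), Tmtc4 (r = 0.912) and Rab33a (r = 0.911). Hspb7 was most like Hsf2, a heat shock factor gene (r = 0.936), Selenof (r = 0.899) and Popdc2 (r = 0.895). Hsf2 itself did not pass with heat in the average over the genotypes (0.17 ± 0.19, adjusted p = 0.64). Cryab was most like Septin7 (r = 0.918), Scp2 (r = 0.917) and Rap2c (r = 0.914). The steadier Hspb2 and Hspb6 had looser neighbours, Ldb2 (r = 0.83), Kcnmb1 (r = 0.73) and Rbm7 (r = 0.729) for the former, and Enox1 (r = 0.814), Rdh13 (r = 0.775) and Ddx11 (r = 0.768) for the latter.

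Among the members, Hspb1 and Hspb8 went together over the 21 arrays where both have a value (r = 0.80) and Hspb1 and Hspb3 went apart over 22 (r = -0.84). After each group's mean was taken out these became 0.49 and 0.14, so the opposite course of Hspb1 and Hspb3 lay between groups, not within them. Cryab and its neighbour Hspb2 had r = -0.16 over 23 arrays, and -0.39 about the group means. With the summed heart markers r was 0.65 for Hspb3, 0.61 for Hspb2, 0.58 for Hspb7 and 0.38 for Hspb6, and -0.36 for Hspb1, -0.21 for Hspb8 and 0.24 for Cryab. These r include wildtype heat A, the lowest pool for the summed markers (241), for Hspb3 (0.779) and for Hspb2 (6.27). How far they rest on that pool was not tested.

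The tissue labels were checked with 20 markers of the day 8.5 embryo. Of these 17 are on the array under those names and 15 were above the 40th percentile on every array with a value, the others being Hoxb9 (22 of 23 arrays) and Shh, a signal of notochord and floor plate (1 of 15 arrays). Most values of an array lie above that percentile by definition, so this is a weak check of the tissue. Of the 14 markers tested, 2 were lower with heat in the average, against 12.2% of all probes called in either direction. These were Sox17 (-0.36 ± 0.07) and Twist1 (-0.24 ± 0.07), and Pax6 (-0.24 ± 0.08) and Tcf15 (-0.16 ± 0.07) did not pass. Among markers of tissues that may stay attached, 1 of 17 yolk sac genes (Lrp2, 0.46 ± 0.10), 1 of 4 trophoblast and decidua genes (Dcn, 0.46 ± 0.12) and 1 of 6 primitive red cell genes (Epor, 0.38 ± 0.12) were higher with heat in the average and 0 lower, beside the same 12.2% of all probes. In wildtype pools the mean log2 level went from -0.72 to -0.39 with heat for Lrp2, from 0.85 to 0.82 for Dcn and from -0.15 to -0.38 for Epor. In heterozygous and null pools each of these genes had the higher mean after heat. The yolk sac list as a whole did not follow Lrp2 in wildtype pools. The median heat difference of its 17 genes was -0.64 there, with 1 called lower, against 0.59 in heterozygous and 0.5 in null pools. Summed over 13 of them, the level was 226 to 345 in wildtype control pools. In wildtype heat pools it was 333 in A and 140 to 159 in B to D. The part of attached tissue in the member differences was not tested. The targeted gene, Trp53, was not analysed here, so the genotype labels were not checked with it. The deposited columns of the baths had been prepared differently: from 7576 to 11666 cells, mostly of dim probes, are empty in each of the 12 control columns, and none is in the 11 heat columns. For the members only 2 of 84 control cells are empty, those of Hspb1 and Hspb8 named above. Bath and column preparation cannot be told apart for any heat difference here.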

How the data were processed

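Transcript levels of pooled whole embryos were measured on 23 CodeLink 1-colour arrays. The authors deposited linear intensities in one table of 36227 probes. The sources used here do not give the scanner, background step or normalization. Empty cells and the code for missing were treated as missing, and positive values of an array below their own 5th percentile, and values at or below 0, were raised to it before log2. Quantile normalization was learnt on the 18702 probes with a value on every array and applied to all values. The 21979 tested probes have 3 or more values per group and exceed the 40th percentile of the array on 3 or more arrays. Differences were fitted with limma 3.58.1 (lmFit, eBayes with trend) in R 4.3.3 with 1 mean for each of the 6 groups, using all arrays, with two-sided p-values adjusted by Benjamini-Hochberg over the tested probes and a threshold of 0.05; the procedure was tested on simulated data. Of the probes 21615 have 1 symbol, 681 several and 13931 none listed; 21487 symbols were matched by gene ID to RefSeq (GRCm38.p6), used for names, neighbours and promoter windows. Where a gene has several probes, the one with the highest mean stands for it.

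The members and gene lists were chosen with earlier results of these data known. Named are all members, per list up to 4 genes of smallest p in the averaged heat effect (for yolk sac, trophoblast and red cell lists the first only) and any gene a member is set beside, and the 3 genes most like each member; further genes that passed (Hspa1b, Dnajb6, Popdc2) or are well-known heat genes (Dnajb1, Hsph1) were chosen after their values were seen. The split score is each array's projection on the difference between heterozygous control pools A, B and C, D. The labels call the pools biological replicates and name no litters, so p-values cover only the spread among these pools, and the number of arrays limits the precision. Pools were not paired by letter in the main fit, and a block by letter was run as an alternative. Alternatives covered scaling, floor, filters, spread model, covariates, arrays in the fit and each pool left out.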

Additional observations from a re-analysis of the deposited data

Results flagged for a closer look

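Hspb3 in wildtype heat pool A, at 0.779, stood apart from the other 3 wildtype heat pools at 1.36 to 1.45; its gap to the nearest, 0.859 of the group's range, is above Dixon's 95% limit. It is 1 flag among 33 groups of 4 pools, and chance flags about 1 in 20 such groups. The fall of Hspb3 with heat in wildtype pools passed without this pool too (-0.70 ± 0.11, adjusted p = 0.0024, limma).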

How the results depend on the processing

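Hspb1 rose with heat in each genotype under all alternatives run, by 2.1 to 2.41 in wildtype, 1.93 to 2.05 in heterozygous and 1.93 to 2.13 in null pools on the log2 scale. Of 1921 refitted member differences 1888 kept their side of the threshold and their direction if called, 18 came past it and 15 fell short of it; the sign differed in 83, none of them called.

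Counts of members past the threshold moved as follows. With heat in heterozygous pools (2) the count was 1 under the stricter brightness filter, which leaves 4 members tested, and with only the compared arrays, and 1 to 2 with each pool left out. That filter drops the dimmer probes of Hspb3, Hspb6 and Hspb7. On the heat arrays they lay at percentiles 43 to 58.8, 40.5 to 51.3 and 45.5 to 60.3. With heat in null pools (1) it was 4 with the array maximum as covariate, 2 with the split score as covariate, and 1 to 2 with each pool left out. For null against wildtype controls (1) it was 0 under the stricter filter and with the split score, 2 with array weights and with only the compared arrays, and 0 to 1 with each pool left out. For heterozygous against wildtype heat pools (0) it was 1, Hspb1, with the split score. For null against heterozygous controls (0) it was 0 to 1 with each pool left out. For the null minus wildtype response (0) it was 1, Hspb7, in the deposited values, with array weights and with only the compared arrays, and 0 to 1 with each pool left out. Apart from the filter, the cause was not tested.

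Same-lettered pools of different groups had deviations correlating at 0.089 on average (-0.357 to 0.68, 55 pairs). Pools of other letters and other groups were at -0.029 (-0.676 to 0.712, 165 pairs). Of 23 pools 7 correlated best with one of their own letter. With the letter as a replicate block the count was 2 with heat in null pools, where Hspb8 passed at 0.85 ± 0.15 (adjusted p = 0.0046), and in heterozygous pools Hspb8 passed at 0.64 ± 0.14 (adjusted p = 0.019).

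Over all probes the count with heat in wildtype pools, 676, was 541 to 1970 under the alternatives and 356 to 772 with a pool left out; in heterozygous pools, 508, it was 64 to 1248 and 218 to 683, in null pools, 1215, it was 311 to 5178 and 277 to 1572, and for null against wildtype controls, 1838, it was 12 to 5843 and 252 to 1936. For null against heterozygous controls (10) it was 0 to 24 and 0 to 769, for null against wildtype heat pools (123) 1 to 1617 and 22 to 1330, for heterozygous against wildtype heat pools (31) 2 to 231 and 4 to 90, and for the null minus wildtype response (222) 77 to 650 and 8 to 344. Of those called in wildtype 41.7% were higher, against 9.95% in the deposited values.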
